A study of Mus musculus with 12 samples.

Results

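Tumours of stressed mice given Xiao-chai-hu decoction at either dose were compared with tumours of stressed mice given none, to ask which transcripts stood apart from stress at both doses. The comparison used 9 of the 12 libraries of the series: all 6 decoction libraries, with equal weight to the low and the high dose (labelled XCHT-L and XCHT-H, 3 each), and the 3 libraries labelled as the stress model. The remaining 3, from the control group, entered the estimate of the spread and are given as a reference level. All libraries were made from subcutaneous colorectal tumour tissue of Mus musculus, and the stress and both decoction groups were all under chronic stress. Controls carried tumours alone. The labels give the doses no number and name no strain, age, tumour line, form of stress or length of treatment, and their genotype field repeats only the group name. Whether the 3 replicates within each group are separate animals is not stated. The p-values therefore rest on library-to-library spread, which may be technical. Both doses were set against the same 3 stress libraries, so a library that stood apart among those moved the values of both doses alike.

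Xiao-chai-hu decoction is a traditional Chinese herbal mixture built around Bupleurum and Scutellaria roots. Chronic stress acts on peripheral tissue mainly through adrenal glucocorticoids and through the catecholamines of sympathetic nerves. Glucocorticoids switch on target genes through their nuclear receptor, dampen lymphocytes and reset the clock genes of peripheral organs, while catecholamines act through adrenergic receptors and cyclic AMP. A tumour transplanted under the skin holds tumour cells, fibroblasts, vessels and immune cells, and can carry neighbouring muscle, fat or skin.

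Total counts ran from 16734741 to 17950195 per library, with 15476 to 15775 genes above 0. Of 15 colorectal epithelial markers, 14 were in the tables and 3 had a mean of at least 1 FPKM (fragments scaled for transcript length and library depth) over the 9 libraries. Sox9, a transcription factor of crypt cells, averaged 29.8 FPKM under stress and 40.2 FPKM with decoction, but Epcam did not exceed 0.46 FPKM, Krt8 did not exceed 0.08 FPKM, and Krt18 was listed at 0 in all 9. The other markers at 1 FPKM or more were the lectin Lgals4, at 9.15 FPKM under stress and 8.78 FPKM with decoction, and the adhesion protein Cdh1, at 1.73 and 2.43 FPKM. Epcam and the keratins Krt8, Krt18 and Krt20 were thus at or near 0, whereas Sox9 and Lgals4 were not. Transcripts of mature skeletal muscle fibres set low-dose replicate 3 and high-dose replicate 2 apart, with scores of 2.73 and 4.14 against -2.10 to 0.96 in the other 7 libraries. The score is the mean log2 CPM (counts scaled to library size, with TMM factors) of a list's members, centred on the mean of all 12 libraries. Libraries also differed along transcript length. Across genes, which are not independent replicates, the rank correlation of a library's deviation with length was -0.66 in low-dose replicate 2, 0.46 in high-dose replicate 3 and 0.13 to 0.30 in the stress libraries.

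No gene passed at an adjusted p under 0.05 for both doses against stress (0% of 13453 genes tested), where the smallest adjusted p was 0.745 by edgeR's quasi-likelihood test with Benjamini-Hochberg adjustment. An unadjusted p under 0.05 was reached by 873 genes (6.49%), of which 430 stood higher (3.2% of those tested) and 443 lower (3.29%). If no gene differed, about 673 would be expected at that threshold. The count fell below that in several alternatives. It was 503 with only the 9 compared libraries, 447 with all 6 decoction libraries as 1 group and 644 with length trends removed. Leaving out stress replicate 1 gave 583. Without low-dose replicate 1 the 873 became 2319, and still 0 passed the adjusted threshold by edgeR. DESeq2 called 3 genes: Tfrc, Dnase1l3 and Cyp26b1. limma-voom with quality weights called 0. All 6 decoction libraries lay above all 3 stress libraries for 115 genes (0.855%) and below them for 161 (1.2%). Chance alone separates some genes in this way, and how many to expect was not computed. The median log2 fold change over all genes was -0.0008 and the median standard error (SE) 0.142. Every gene below is therefore given by its values, as one that did not pass over all genes.

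By a fixed rule the 8 genes in each direction with the smallest p were named, among those with all 6 decoction libraries beyond all 3 stress libraries. Vamp5, a SNARE-family protein of vesicle traffic (Entrez ID 53620, chromosome 6, 72368049 to 72380468 on GRCm38.p6), stood at 9.92, 9.56 and 9.11 CPM in the stress libraries. With decoction it ran from 11.97 through a median of 13.88 to 18.45 CPM, a log2 fold change of 0.61 (SE 0.13). The difference was 0.75 at the low and 0.46 at the high dose. Stress libraries were tightly grouped for Vamp5, and each decoction library lay above them. Cyp26b1, the enzyme that breaks down retinoic acid (chromosome 6, 84571414 to 84593908), stood at 28.05, 22.32 and 18.90 CPM under stress and ran from 29.69 through 42.23 to 55.30 CPM with decoction. Its log2 fold change was 0.88 (SE 0.19), with 1.05 at the low and 0.71 at the high dose, and DESeq2 gave it an adjusted p of 0.0235. St3gal5, the sialyltransferase that makes the ganglioside GM3, stood at 5.19, 7.17 and 5.21 CPM under stress and from 7.49 through 10.84 to 12.99 CPM with decoction, a difference of 0.79 (SE 0.18). High-dose replicates 2 and 3 lay close above the highest stress library for St3gal5. Sdc1, the heparan sulfate proteoglycan syndecan-1, stood at 85.4, 88.2 and 88.0 CPM under stress and from 91.96 through 111.5 to 136.1 CPM with decoction, a difference of 0.36 (SE 0.08).

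Pdlim7, an adaptor of the actin cytoskeleton, differed by 0.51 (SE 0.12), with 41.0 to 46.7 CPM under stress and 47.9 to 81.9 CPM with decoction. Tubb2b, a beta-tubulin with a near-identical paralog, differed by 0.42 (SE 0.10), with 10.20 to 11.37 CPM under stress and 12.72 to 16.13 CPM with decoction. Ndufb4, an accessory subunit of respiratory complex I, differed by 0.41 (SE 0.10). Its transcript was short, with an effective length of 181 bases, and once each library's trend with transcript length was removed its difference was 0.19. Cry1, a repressor of the circadian clock, differed by 0.43 (SE 0.11). Low-dose values exceeded high-dose values for 7 of these 8 genes, Cry1 being the exception. Their adjusted p between the doses was 0.758 or above by edgeR, but the naming rule left out any gene that passed there. Unadjusted edgeR p-values between the doses were under 0.05 for St3gal5 (0.0451), Sdc1 (0.0191), Pdlim7 (0.0193) and Ndufb4 (0.0325). Over all genes 6.39% had such a p.

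Among the 8 lower genes the largest fold change was that of Tfrc, the transferrin receptor through which cells take up iron (Entrez ID 22042, chromosome 16, 32608896 to 32632794). Tfrc stood at 106, 120 and 254 CPM in stress replicates 1, 2 and 3, and with decoction it ran from 40.9 through 50.9 to 88.0 CPM. Its log2 fold change was -1.48 (SE 0.31), a level 2.79-fold lower. The low dose stood at -1.43 (SE 0.37) and the high dose at -1.53 (SE 0.38). Stress replicate 3 was the highest library by far, and without it the difference was -0.97. DESeq2 gave Tfrc an adjusted p of 0.00635. Between the doses Tfrc differed by -0.10, with a 95% interval from -0.92 to 0.72, which leaves room for a difference of up to that size in either direction.

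Ank2, the membrane scaffold ankyrin-B, stood at 48.9, 39.2 and 68.2 CPM under stress and from 19.5 through 30.2 to 38.7 CPM with decoction, a difference of -0.78 (SE 0.17). Sntb2, the syntrophin that links channels and kinases to dystrophin-like proteins, stood at 46.8, 44.1 and 59.4 CPM under stress and from 24.5 through 32.2 to 43.6 CPM with decoction, a difference of -0.66 (SE 0.16). For both genes stress replicate 3 was the highest library and the closest decoction library lay within 1 CPM of the lowest stress library. Tbc1d8, a Rab GTPase-activating protein, differed by -0.54 (SE 0.13), with -0.79 at the low and -0.30 at the high dose. Phlpp1, the phosphatase that switches off AKT, differed by -0.42 (SE 0.10), from 38.8 to 50.7 CPM under stress to 29.3 to 38.2 CPM with decoction. Tnrc6a, the GW182 protein that carries out silencing by microRNAs, differed by -0.38 (SE 0.08), and by -0.23 with length trends removed. Bclaf1, a nuclear factor of transcription and splicing, differed by -0.36 (SE 0.08), at an effective length of 5149 bases. Zcchc4, the methyltransferase of 28S ribosomal RNA, stood at 34.0, 33.0 and 35.4 CPM under stress and at 26.7 to 28.4 CPM with decoction, a difference of -0.31 (SE 0.08). At the 2 doses Zcchc4 differed by -0.33 and -0.28. Unadjusted edgeR p-values between the doses were under 0.05 for Ank2 (0.043), Tnrc6a (0.0454) and Tbc1d8 (0.0061), each lower at the low dose.

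**Figure D1:**
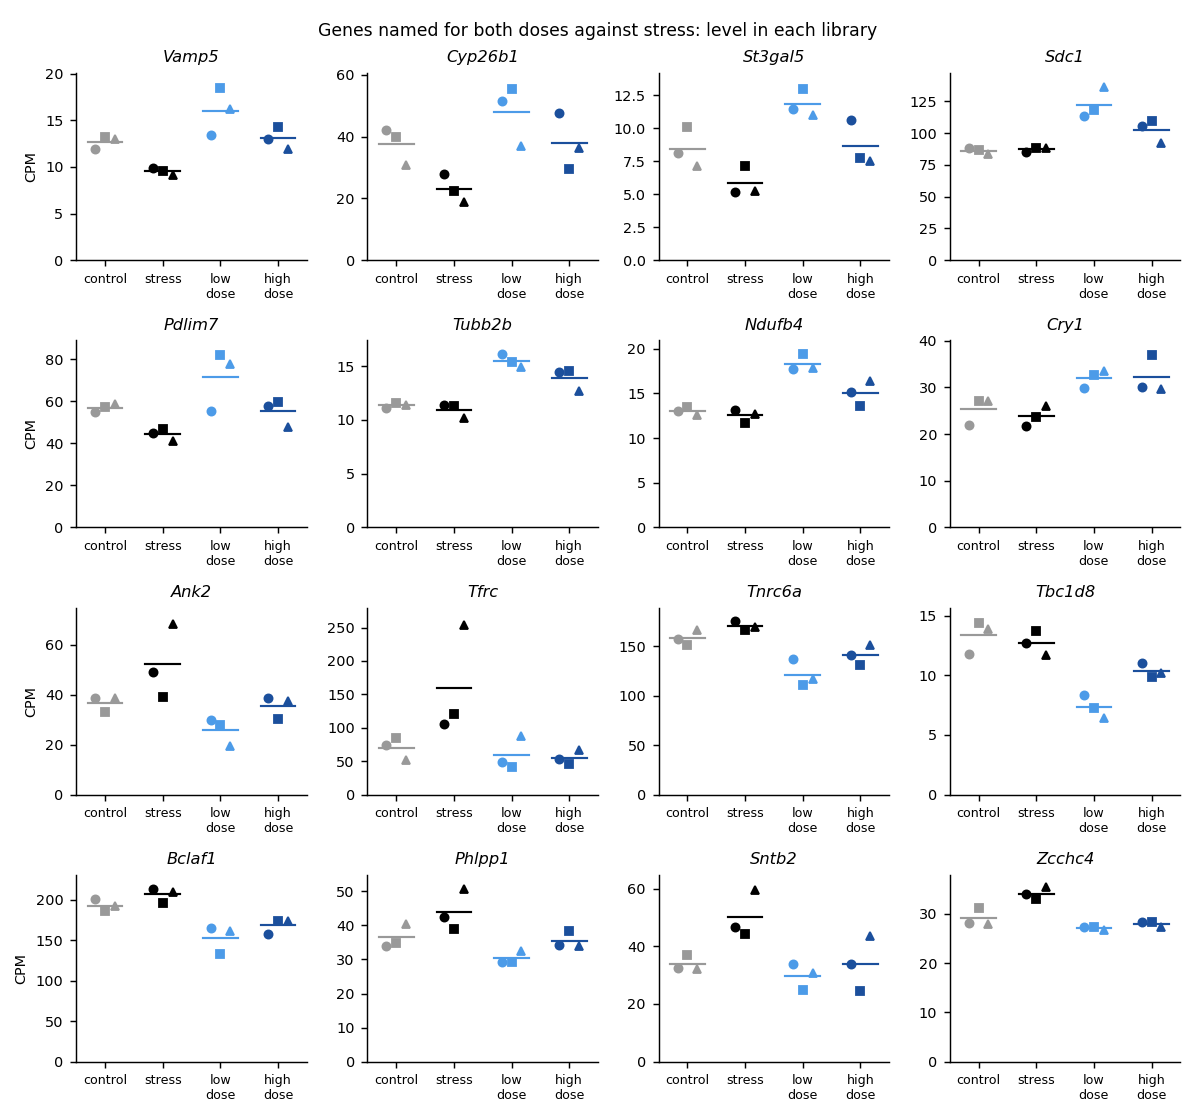
Level of the 16 named genes in each library, in CPM on linear axes that start at 0. Circles, squares and triangles are replicates 1, 2 and 3, and lines are group means; the top 8 panels show genes higher with decoction (Vamp5 from 9.11 to 9.92 CPM under stress and from 11.97 CPM upward with decoction) and the lower 8 show genes lower with decoction, with stress replicate 3 of Tfrc far above the rest at 254 CPM.

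Control tumours gave a second reference for these genes. For Cyp26b1 the controls stood at 30.99 to 42.22 CPM and for Pdlim7 at 54.75 to 58.79 CPM, above the 3 stress libraries and within the decoction range. For Vamp5 they stood at 11.89 to 13.25 CPM, also above stress, the lowest of them just under the lowest decoction library. Tfrc stood at 51.95 to 84.55 CPM in controls and Sntb2 at 32.25 to 36.96 CPM, below all stress libraries and also within the decoction range. By contrast Sdc1 stood at 83.60 to 88.01 CPM in controls, Tubb2b at 11.13 to 11.62 CPM and Cry1 at 22.02 to 27.14 CPM. Those controls lay beside the stress libraries, below every decoction library. Tbc1d8 stood at 11.83 to 14.41 CPM in controls, also beside stress. Because the stress libraries serve both as the reference for decoction and in the contrast with control, these levels are set side by side without a test.

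The circadian clock is a feedback loop in which CLOCK and BMAL1 (Arntl) switch on the Per, Cry and Bhlhe genes through E-box elements, and the proteins of those genes repress CLOCK and BMAL1 in turn. Of the 17 clock genes tested, 3 were higher and 1 lower at an unadjusted p under 0.05, beside 3.2% and 3.29% of all genes, and 2 lay above and 1 below stress in all 6 decoction libraries, beside 0.855% and 1.2%. Cry1 stood at 21.8, 23.7 and 26.1 CPM under stress and from 29.6 through 31.4 to 37.0 CPM with decoction. Low and high dose differed from stress by 0.42 and 0.44. Bhlhe41 (DEC2), a repressor that competes for the E-box (chromosome 6, 145858243 to 145865420), stood at 16.8, 22.0 and 19.7 CPM under stress and from 22.4 through 26.1 to 30.9 CPM with decoction, a difference of 0.45 (SE 0.16). Its lowest decoction library lay just above the highest stress library, and the doses stood at 0.44 and 0.45. Per1, a repressor that is also a direct glucocorticoid target (chromosome 11, 69095108 to 69109965), went the other way: 143, 139 and 178 CPM under stress against 71.2, a median of 94.7 and at most 134 CPM with decoction. Its difference was -0.62 (SE 0.19), with -0.68 at the low and -0.56 at the high dose, and the controls stood at 78.8 to 107 CPM. Between the doses Cry1 differed by 0.01, with a 95% interval from -0.26 to 0.29.

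Cry1 and Bhlhe41 thus stood higher and Per1 lower in all 6 decoction libraries, while the other 14 clock genes tested overlapped stress. Bhlhe40 (DEC1), the relative of Bhlhe41 that hypoxia induces, differed by 0.62 (SE 0.26), with 49.4 to 70.8 CPM under stress and 59.7 to 156 CPM with decoction. Its highest value was in low-dose replicate 3, which was rich in muscle transcripts. Omitting that library, high-dose replicate 2 and control replicate 1, the 3 muscle-rich libraries of the series, gave a difference of 0.35. Nr1d2, a nuclear receptor that represses Arntl, differed by -0.40 (SE 0.23), with 4 of 6 decoction libraries below stress. The core members were closer to 0: Arntl differed by -0.02 (SE 0.09), Clock by -0.13 (SE 0.10), Per2 by -0.04 (SE 0.19) and Cry2 by -0.01 (SE 0.11). The median over the 17 genes was -0.04.

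The promoters of Cry1, Per1 and Bhlhe41 are shown because these were the clock genes whose decoction libraries lay wholly apart from stress, and because the E-box is the element through which the loop acts on them. Each run is the 250 bases before an annotated start in RefSeq on GRCm38.p6, 5′ to 3′ on the gene's strand, with the E-box CACGTG in capitals. The motif reads the same on both strands and was the only one searched. The regions are chr10:85185055-85185304 on the minus strand for Cry1, chr11:69098699-69098948 on the plus strand for Per1, and chr6:145865421-145865670 on the minus strand for Bhlhe41.
Cry1: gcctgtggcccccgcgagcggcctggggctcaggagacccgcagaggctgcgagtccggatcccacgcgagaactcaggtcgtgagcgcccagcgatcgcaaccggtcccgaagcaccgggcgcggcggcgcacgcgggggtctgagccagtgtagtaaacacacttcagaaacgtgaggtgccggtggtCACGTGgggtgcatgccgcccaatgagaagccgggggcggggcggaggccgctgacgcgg
Per1: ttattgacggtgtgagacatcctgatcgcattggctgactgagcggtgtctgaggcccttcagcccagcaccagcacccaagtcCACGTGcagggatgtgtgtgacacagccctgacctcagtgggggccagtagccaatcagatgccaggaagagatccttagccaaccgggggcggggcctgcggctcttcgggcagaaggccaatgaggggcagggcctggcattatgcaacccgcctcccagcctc
Bhlhe41: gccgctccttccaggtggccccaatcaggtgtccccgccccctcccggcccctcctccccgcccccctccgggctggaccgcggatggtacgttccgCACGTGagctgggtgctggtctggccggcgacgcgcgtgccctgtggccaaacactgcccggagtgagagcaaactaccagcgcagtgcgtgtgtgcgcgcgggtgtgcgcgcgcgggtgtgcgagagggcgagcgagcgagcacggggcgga
The motif begins 60 bases before the start in Cry1, 166 in Per1 and 153 in Bhlhe41. RefSeq gives Per1 a second start, whose window has no match. Both Per1 windows lie inside the gene span given above, and the sequence before the outer end of that span was not searched. Of the 15 tested clock genes with a window, 5 held the motif in at least 1 window: these 3, Ciart, which differed by 0.45 (SE 0.28), and Tef, which differed by -0.35 (SE 0.19). The motif was in 6.02% of all 32851 windows and in at least 1 window of 9.50% of the 10699 tested genes that had one. Genes with the motif stood on both sides of 0, and a match describes the letters only.

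**Figure D2:**
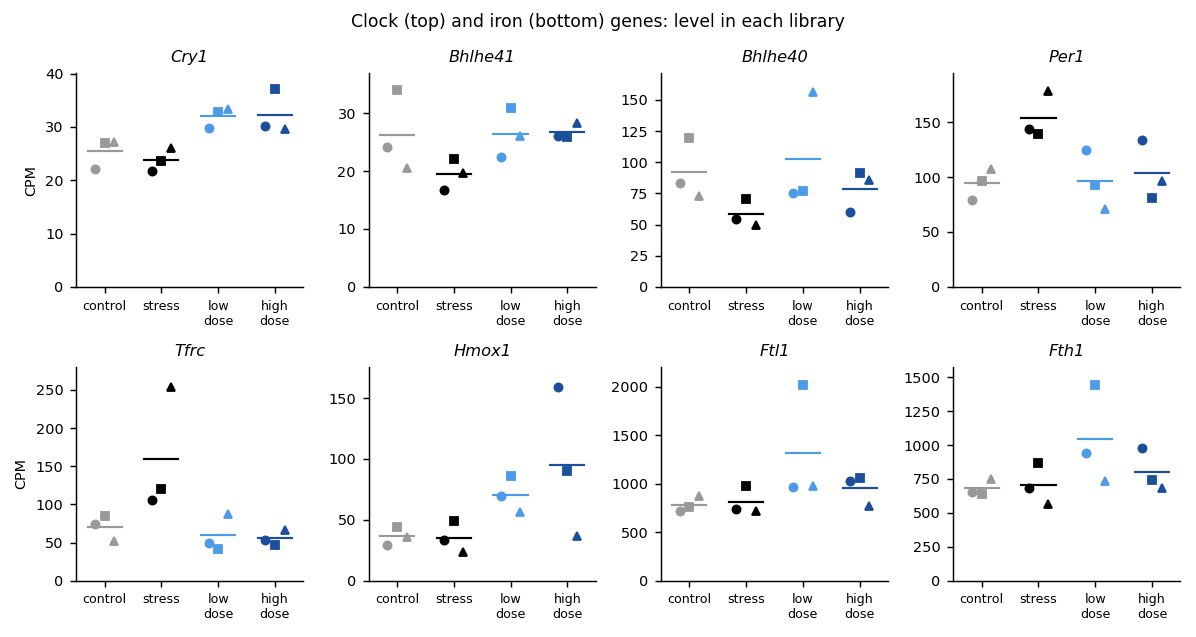
Level of 4 clock genes (top) and 4 iron genes (bottom) in each library, in CPM on linear axes that start at 0, with replicates as circles, squares and triangles and group means as lines. Cry1 and Bhlhe41 lie above stress and Per1 and Tfrc below it in all 6 decoction libraries, while Bhlhe40, Hmox1, Ftl1 and Fth1 overlap stress.

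Iron enters cells through the transferrin receptor, is stored in ferritin and is released from heme by heme oxygenase. When iron is plentiful, the iron-regulatory proteins leave the receptor's mRNA to decay and leave ferritin mRNA free to be translated. Of 19 iron and ferroptosis genes tested, 1 was higher and 2 were lower at an unadjusted p under 0.05, beside 3.2% and 3.29% of all genes, counts too small to set the list apart. Its median was 0.09 (-0.0008 over all genes). Beside Tfrc, the lower one was Ireb2, which encodes an iron-regulatory protein and differed by -0.25 (SE 0.10). Hmox1, the heme oxygenase, stood at 33.1, 48.7 and 23.3 CPM under stress and from 36.3 through 77.8 to 159 CPM with decoction. Its difference was 1.23 (SE 0.41), with 1.01 at the low and 1.44 at the high dose. Decoction lay above all stress libraries in 5 of 6, the exception being high-dose replicate 3, and the controls, at 29.4 to 44.2 CPM, lay within the stress range. High-dose replicate 1, which held the highest Hmox1 value, also had the highest red blood cell score (2.58), and without it the difference was 0.93. Whether blood content had a part in Hmox1 was not tested. Ferritin light and heavy chains overlapped stress: Ftl1 differed by 0.47 (SE 0.23) and Fth1 by 0.37 (SE 0.20), with the highest values of both in low-dose replicate 2. Slc11a2, which carries iron out of endosomes, differed by 0.02 (SE 0.13) and Aco1, the other iron-regulatory protein, by 0.03 (SE 0.10).

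Nrf2 (Nfe2l2) is the transcription factor that switches on antioxidant genes once its inhibitor Keap1 lets go of it. Among 20 genes of that list, 17 were higher and 3 lower, with a median of 0.24 (0.25 at the low and 0.18 at the high dose), and 5 were higher at an unadjusted p under 0.05 beside 3.2% of all genes. Nrf2 scores were -0.15, -0.09 and -0.02 in the stress libraries and ran from -0.13 through 0.12 to 0.27 with decoction. High-dose replicate 3 lay within the stress range and the other 5 above it. Taldo1, an enzyme of the pentose phosphate pathway, stood at 88.3, 80.3 and 89.0 CPM under stress and from 89.7 through 108 to 134 CPM with decoction, a difference of 0.34 (SE 0.11). Pgd, which makes NADPH in the same pathway, differed by 0.27 (SE 0.10), the peroxidase Prdx1 by 0.27 (SE 0.10) and the sulfiredoxin Srxn1 by 0.23 (SE 0.10). Osgin1, an oxidative stress response gene, was low throughout, at 1.98 to 2.22 CPM under stress and 2.38 to 3.62 CPM with decoction. Nqo1, a widely used Nrf2 target, stood at -0.30 (SE 0.23) and Nfe2l2 itself at 0.05 (SE 0.08). With the 3 muscle-rich libraries omitted the median of the list was 0.13, and without high-dose replicate 2 alone it was 0.14.

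Heat shock chaperones, which refold proteins under the control of Hsf1, were higher in 20 of 21 members, with a median of 0.39 (0.44 at the low and 0.29 at the high dose). At an unadjusted p under 0.05, 6 were higher, beside 3.2% of all genes, and 0 had all 6 decoction libraries above stress, beside 0.855%. Hspa8, the constitutive HSP70, stood at 3346, 2919 and 3063 CPM under stress and from 3266 through 4110 to 5288 CPM with decoction, a difference of 0.40 (SE 0.15). Ahsa1, the activator of HSP90, differed by 0.42 (SE 0.13), the co-chaperonin Hspe1 by 0.47 (SE 0.19) and Hsph1, an exchange factor of HSP70, by 0.59 (SE 0.23). The libraries did not move as a block. Heat shock scores were -0.32, -0.13 and -0.43 under stress, and with decoction -0.16, 0.40 and 0.29 at the low and -0.07, 0.56 and -0.21 at the high dose. Low-dose replicate 1 and high-dose replicate 3 thus lay within the stress range, and low-dose replicates 2 and 3 and high-dose replicate 2 stood highest. Low-dose replicate 3 and high-dose replicate 2 are also muscle-rich, and with the 3 muscle-rich libraries omitted the median was 0.26. Control scores ran from -0.08 to 0.12.

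**Figure D3:**
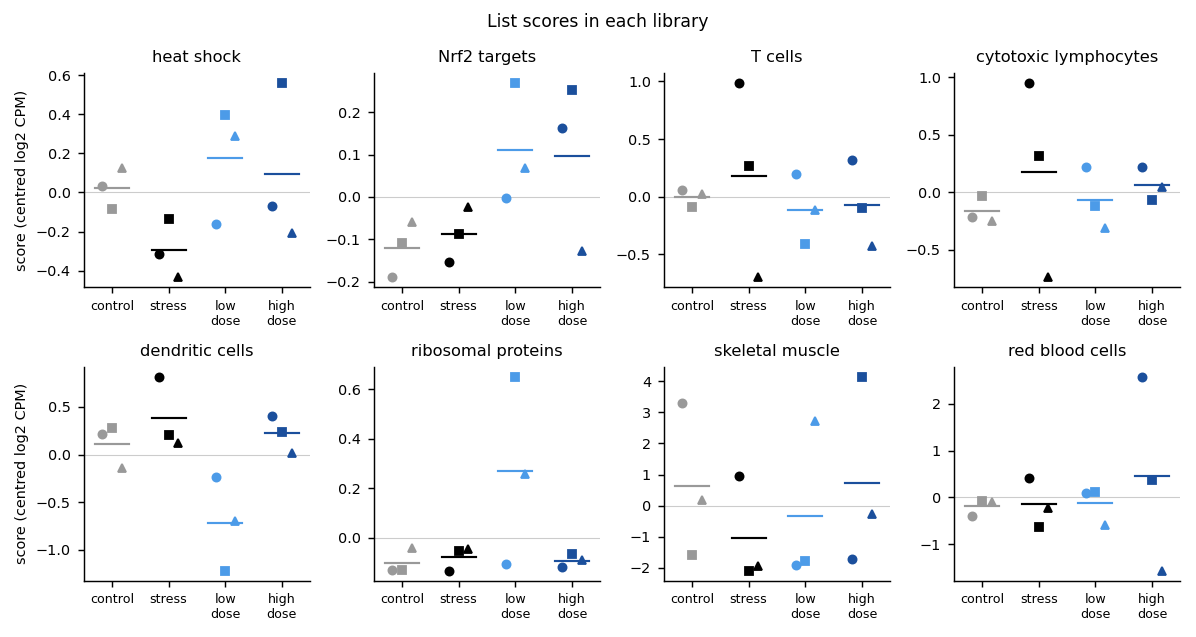
Score of 8 gene lists in each library, the mean of the members' log2 CPM centred over all 12 libraries, with replicates as circles, squares and triangles and group means as lines. Heat shock scores lie from -0.43 to -0.13 under stress and up to 0.56 with decoction; T cell scores range from -0.70 to 0.99 within the stress group alone and from -0.43 to 0.32 with decoction.

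Markers of T cells, the lymphocytes that recognise tumour antigens, were lower in 17 of 19 members at a median of -0.43 (-0.36 at the low and -0.42 at the high dose). Markers of cytotoxic lymphocytes and natural killer cells were lower in 17 of 19 at -0.33. In bulk tissue, fewer cells of a type and less RNA per cell cannot be told apart. Foxp3, the master factor of regulatory T cells, was low, at 1.69, 1.17 and 1.26 CPM under stress and from 0.17 through 0.74 to 0.94 CPM with decoction, a difference of -0.99 (SE 0.42). Foxp3 was the only member of both lists with all 6 decoction libraries below stress. Cd4, the co-receptor of helper T cells, differed by -0.77 (SE 0.38), Cd8b1 of killer T cells by -0.80 (SE 0.48), and Il2rb, an interleukin-2 receptor chain, by -0.52 (SE 0.29). The stress libraries carried most of the spread: T cell scores were 0.99, 0.26 and -0.70 in stress replicates 1, 2 and 3, and from -0.43 to 0.32 with decoction. Without stress replicate 1 the T cell median was 0.09 and the cytotoxic median 0.09, so the sign of both rests on that library. Without stress replicate 3 they were -0.79 and -0.63.

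Other immune groups had unlike values at the 2 doses. Dendritic cells present antigen to T cells, and 15 of their 19 tested markers were lower, with a median of -0.61 that held -1.09 at the low and -0.24 at the high dose. At an unadjusted p under 0.05, 10 of the 19 differed between the doses, all higher at the high dose, beside 6.39% of all genes. No gene passed between the doses over all genes (0%, smallest adjusted p of 0.549 by edgeR), and DESeq2 called 5: Dnase1l3, Tlr12, Notch3, Gm20594 and Tmem254c. That 0 rested on the libraries included, since edgeR called 99 genes between the doses without low-dose replicate 1 and 1 without stress replicate 1. Dnase1l3, a DNase secreted by dendritic cells and macrophages, stood at 4.72, 3.32 and 2.29 CPM under stress, at 0.56, 0.06 and 0.24 CPM at the low dose and at 2.50, 3.76 and 1.63 CPM at the high dose. The low-dose libraries were apart from all others for Dnase1l3. DESeq2 called it for both doses against stress (adjusted p of 0.0121), yet its pooled difference of -1.97 (SE 0.41) held -3.55 at the low and -0.39 at the high dose, and it was -1.23 with all 6 decoction libraries as 1 group. Tlr12, a sensor of protozoan profilin in the same cells, held -2.53 and -0.25. Flt3, the receptor for the growth factor of dendritic cells, was the 1 marker below stress in all 6 decoction libraries by CPM. The margin was narrow: at least 1.224 CPM under stress and at most 1.222 CPM with decoction. By deposited FPKM Flt3 overlapped stress, at 0.36 in stress replicate 2 and 0.45 in high-dose replicate 1. Its doses stood at -2.30 and -0.89.

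MHC class II genes, which dendritic cells and macrophages use to show peptides, had a median of -0.55, with -0.87 at the low and -0.14 at the high dose, and -0.05 without stress replicate 1. Type I interferon response genes had -0.34, with -0.56 and -0.05, and 0.18 without stress replicate 2, the library with their highest score (1.07). Macrophage markers had a median of 0.01 in 20 genes and MHC class I genes -0.03. Neutrophil markers had 0.65 in 10 genes, 0.90 at the low and 0.40 at the high dose. Mmp8, a collagenase of neutrophils, differed by 1.25 (SE 0.55). It overlapped stress, at 0.29 to 1.40 CPM there and 0.61 to 4.54 CPM with decoction. Csf3r (-0.51, SE 0.33) and Mmp9 (-0.28, SE 0.39) were the only lower members of the 10. Ly6g, Cxcr2, S100a8, S100a9 and Retnlg, also on the list, had counts too low to be tested. From stress to decoction S100a8 averaged 1.94 and 2.83 FPKM, S100a9 1.34 and 1.18 FPKM, and Retnlg 0.12 and 0.09 FPKM. Ly6g was at 0 FPKM in 8 of the 9 libraries and Cxcr2 did not exceed 0.30 FPKM. With the 3 muscle-rich libraries omitted the neutrophil median was 0.14. Notch3, a receptor of pericytes and vascular smooth muscle, stood at 13.1 to 15.3 CPM under stress, at 8.26, 6.50 and 5.18 CPM at the low dose and at 14.8, 11.5 and 12.2 CPM at the high dose, a difference of 0.95 (SE 0.18) between the doses. Gm20594 is a predicted gene with an effective length of 76 bases. The fifth gene by p between the doses was Etl4, higher by 0.54 (SE 0.12) at the high dose.

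Groups of short, highly expressed transcripts were higher and groups of long ones lower. All 36 cytosolic ribosomal protein genes had a value above 0, with a median of 0.17 (0.38 at the low and -0.02 at the high dose). The 23 proteasome genes did likewise at 0.15, and 32 of 35 oxidative phosphorylation genes at 0.14. Proteasome scores were -0.15 to -0.01 under stress, -0.08 to 0.30 at the low and -0.09 to 0.19 at the high dose. Oxidative phosphorylation scores were -0.16 to 0.04, -0.08 to 0.36 and -0.11 to 0.06. For both lists low-dose replicate 1 and high-dose replicates 1 and 3 lay within the stress range. Psma4, a proteasome core subunit, stood at 96.7, 91.2 and 92.2 CPM under stress and from 99.2 through 111 to 128 CPM with decoction, a difference of 0.27 (SE 0.09). Ndufa1, a small subunit of complex I, stood at 15.8 to 19.1 CPM under stress and 19.2 to 28.1 CPM with decoction, a difference of 0.43 (SE 0.14). Chromatin modifiers, which are long genes, were lower in 22 of 26 members at a median of -0.20. At an unadjusted p under 0.05, 6 were lower, beside 3.29% of all genes, and 4 lay below stress in all 6 libraries, beside 1.2%. Setd2, the methyltransferase of H3K36, stood at 140, 146 and 148 CPM under stress and from 96.0 through 117 to 138 CPM with decoction, a difference of -0.34 (SE 0.09). The remodeler Chd8 differed by -0.33 (SE 0.10) and Arid1a, a subunit of the BAF complex, by -0.20 (SE 0.08). The fourth was Kmt2b, an H3K4 methyltransferase, chosen here after its values were seen.

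The same gradient ran over all genes. Named genes lay along it too: the median effective length was 1808 bases for the 8 higher and 4895 bases for the 8 lower. Over all tested genes with a length it was 2590 bases. Among the 16, values with length trends removed are given here for Ndufb4 and Tnrc6a only. When genes were ordered by length into 10 equal groups, the shortest group had a median effective length of 635 bases. There the median log2 fold change was 0.15. Of its 1233 genes, 125 were higher at an unadjusted p under 0.05 and 7 lower, beside 3.2% and 3.29% of all genes. In the group of the longest genes (7183 bases) the median was -0.15, with 6 of 1233 higher and 160 lower. At the low dose the medians in these groups were 0.27 and -0.24, and at the high dose 0.04 and -0.06. Not all low-dose libraries shared the gradient: the rank correlation with length was -0.66 in replicate 2 and -0.27 in replicate 3 but 0.09 in replicate 1. The ribosomal scores were likewise 0.65, 0.26 and -0.10 in those libraries, the last within the stress range of -0.13 to -0.04. With each library's length trend removed, the medians were 0.02 for ribosomal, 0.05 for proteasome, 0.01 for oxidative phosphorylation and -0.03 for chromatin genes, Setd2 stood at -0.19 and Chd8 at -0.18. Heat shock (0.32), Nrf2 (0.20), T cell (-0.50) and dendritic cell (-0.60) medians moved less. Of the 873 genes at an unadjusted p under 0.05, 494 also had such a p once length trends were removed, where there were 644 in all, 358 higher and 286 lower, and 0 passed by edgeR over all genes.

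**Figure D4:**
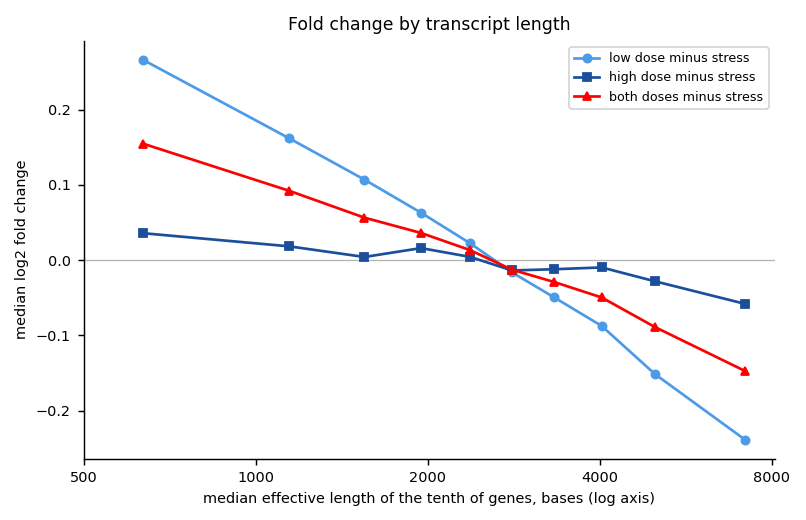
Median log2 fold change against stress of 10 equal groups of genes ordered by effective transcript length (log axis, bases), for the low dose, the high dose and both. The low-dose line falls from 0.27 in the shortest to -0.24 in the longest group, and the high-dose line from 0.04 to -0.06.

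The medians of TGF-beta, hypoxia and glycolysis genes were closer to 0 when the 3 muscle-rich libraries were omitted. TGF-beta genes, whose ligand drives fibroblasts and dampens immunity, had a median of 0.13 in 22 members, with 16 higher. Pmepa1, which restrains TGF-beta receptors, stood at 144, 130 and 113 CPM under stress and from 130 through 190 to 213 CPM with decoction, a difference of 0.47 (SE 0.13). Tgfbi, a matrix protein induced by TGF-beta, differed by 0.31 (SE 0.11), and Smad7, an inhibitory Smad, by 0.40 (SE 0.18). The median of the list was 0.02 with the 3 muscle-rich libraries omitted. ERK output genes had 0.15 in 18 members, at 0.14 and 0.18 at the 2 doses, and 0.05 with the muscle score as a covariate. Hypoxia genes had 0.33 (0.59 at the low and 0.11 at the high dose) and glycolysis enzymes 0.27 (0.50 and 0.07), or 0.18 and 0.13 without the muscle-rich libraries. Lox, the hypoxia-induced enzyme that crosslinks collagen, differed by 2.37 (SE 0.87), ranging from 4.82 CPM in high-dose replicate 3 to 115 CPM in low-dose replicate 3. Immediate early genes had a median of 0.10, with 0.52 at the low and -0.02 at the high dose. Egr3, a member induced by calcium and antigen signals, was above stress in all 6 decoction libraries: 4.899 to 7.227 CPM under stress against 8.16 through 10.3 to 18.5 CPM, a difference of 0.85.

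Lists that bear on stress hormones had medians near 0, with single members apart from them. The 19 glucocorticoid receptor targets had a median of -0.04, with 8 higher and 11 lower. Beside Per1, Fkbp4, a co-chaperone of the receptor, differed by 0.47 (SE 0.17), while Sgk1 stood at -0.32 (SE 0.21). The 13 adrenergic and cyclic AMP genes had a median of -0.06. Their smallest p belonged to Adra2a, the alpha-2A adrenergic receptor, at 1.05, 0.35 and 1.15 CPM under stress and 1.05 to 2.87 CPM with decoction. Adra2a differed by 1.24 (SE 0.43), with 1.49 at the low and 0.99 at the high dose, and 5 of 6 decoction libraries lay above stress, all at levels of few counts. NF-kappa-B genes had a median of 0.04, interleukin-6 and STAT3 genes 0.08 and p53 targets 0.01. DNA replication genes had a median of 0.09 and mitosis genes -0.11, the latter 0.04 without stress replicate 3. Over the 51 lists, 19 medians were above 0.1, 9 below -0.1 and 23 between, and 0 of their members passed over all genes by edgeR.

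**Figure D5:**
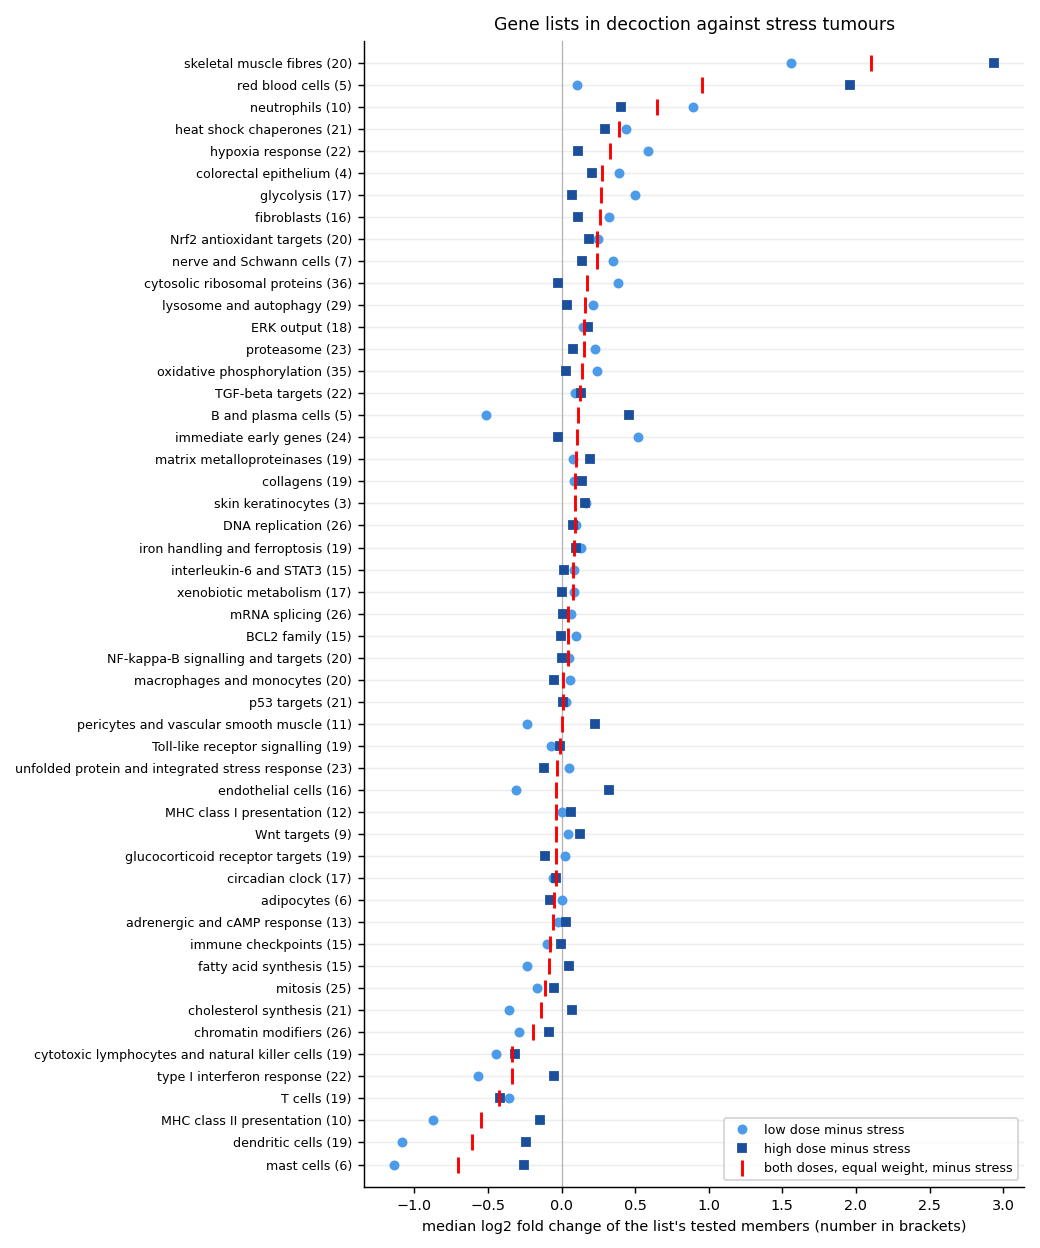
Median log2 fold change of the tested members of 51 gene lists, for the low dose (circles), the high dose (squares) and both doses at equal weight (red bars) against the same 3 stress libraries. T cell and Nrf2 medians lie close together for both doses, dendritic cell and ribosomal medians lie far apart, and skeletal muscle has the highest value, 2.94 at the high dose.

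Transcripts of neighbouring tissue moved with 1 or 2 libraries. All 20 muscle markers were higher, at a median of 2.10. Their summed level was 4.34 to 46.85 FPKM under stress, 9.27 to 212 FPKM at the low and 8.68 to 523 FPKM at the high dose, and the median was -1.33 without the 3 libraries rich in them. Acta1, skeletal muscle actin, averaged 2.42 FPKM under stress and 24.7 FPKM with decoction. Red blood cell markers had a median of 0.96 in 5 members, and 0.04 without high-dose replicate 1. Their sum was 59.8 to 156 FPKM under stress and 29.4 to 925 FPKM at the high dose. Mast cell markers had -0.71 in 6 members, and 0.26 without stress replicate 3. Kit, the receptor they depend on, differed by -0.67 (SE 0.21), below stress in 5 of 6 decoction libraries. For muscle, blood and mast cells, the part of this tissue in other differences was not tested beyond the values given with and without those libraries.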

How the data were processed

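RNA was measured in 12 libraries of 4 groups of 3. Per the labels' protocols, poly(A) RNA was made into stranded libraries and read from both ends. Cutadapt 1.9, HISAT2 2.0.4, StringTie 1.3.4d, DESeq2 and edgeR and the build GRCm38.p6 are named in the submitters' processing notes; the annotation and counting options are not given in the sources used here. The deposited estimated counts per gene, of which 11.7% to 12.5% were not whole, were rounded here. The deposited FPKM values, scaled by the authors for length and depth, served for the naming rule and, with the counts, for effective lengths. The deposited TPM values were used only to check units. Of 17875 genes, 17820 were matched by Entrez ID.

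Genes were kept by filterByExpr at a minimum count of 10 (13453) and fitted with TMM factors and robust quasi-likelihood tests in edgeR 4.0.16 (R 4.3.3), in 1 model of 12 libraries and 4 groups (8 residual degrees of freedom), 2-sided, with Benjamini-Hochberg adjustment over all genes. The contrasts were the mean of both doses minus stress, and high minus low dose. Each dose against stress, from the same fit, is descriptive. The 51 lists (996 entries, 973 matched by symbol, 2 by synonym, 5 repeats and 16 absent), the members and the rules were chosen with earlier results of these data known. Named genes needed a mean of at least 1 FPKM, an official symbol, the same sign at both doses and no overlap between decoction and stress; since fewer than 5 passed, the 8 with the smallest p per direction are given. Up to 4 members per list were named by p, with others as examples chosen after their values were seen. The score used a prior count of 2. The pipeline was tested on simulated data.

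Alternatives were DESeq2 1.42.0, limma 3.58.1 (voom, quality weights), scaling by RLE, all genes unfiltered, a stricter minimum count of 50, the 9 compared libraries alone, the 6 decoction libraries as 1 group, the replicate number as a block, a fold threshold, the muscle score as a covariate, omission of 3 muscle-rich libraries, loess length offsets (span 0.3), and each library left out. Same-numbered libraries did not pair consistently: 3 of 18 such pairs correlated above 0.1, with correlations from -0.451 to 0.415. The highest was between replicate 1 of the low and the high dose. Whether some numbers shared a batch was not tested. Pairs within a group had a chi-square per gene of 6.34 to 77.1, so none agreed within counting noise.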

Additional observations from a re-analysis of the deposited data

Results flagged for a closer look

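In 3 of 67 sets of 6 decoction values examined, the highest or lowest library was separated from the rest by more of the range than the 95% limit of Dixon's test for 6 values. About 3.4 such sets arise by chance.

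For Bclaf1 the ratio of the gap to the range, taken on log2 CPM, was 0.638. It was set by low-dose replicate 2, which at 133 CPM was the lowest of the 6. The other 5 ran from 158 to 174 CPM, and all 6 lay below the 3 stress libraries. For the mast cell score the ratio was 0.866, set by high-dose replicate 1 at 1.33 against -0.44 to -0.21 in the other 5. For the cholesterol synthesis score the ratio was 0.628, set by high-dose replicate 2 at 0.53 against -0.38 to -0.04.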

How the results depend on the processing

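For both doses against stress, 0 genes passed in all alternatives fitted with edgeR or limma-voom, and 3 passed by DESeq2. The count was 94 genes with the rule of an unadjusted p under 0.05 and a log2 fold change of 1 or more in size. With the replicate block 0 genes passed and 820 had an unadjusted p under 0.05. That second count was 447 with the 6 decoction libraries as 1 group, 503 with only the 9 libraries and 2319 without low-dose replicate 1. About 673 would be expected if no gene differed, so the first 2 of these lay below that number. Between the doses DESeq2 called 5 genes, and leaving out 1 library gave 0 to 99, the 99 without low-dose replicate 1 and 1 without stress replicate 1. For the 16 named genes, 2 of 320 values under the 20 alternatives passed, both by DESeq2; their sign is fixed by the naming rule, which asked for no overlap with stress. Of 917 list medians, 903 moved by less than 1 SD of the list's own score between replicates. That limit is wide for lists whose libraries spread widely, so a change of sign can fall within it. The T cell median, whose sign turned without stress replicate 1, did so. Lists with no member above a minimum count of 50 gave no value. RLE factors shifted the median gene by 0.01. With 1 library left out, the 2 that remained in its group were assumed to vary like the other groups. Depth was alike in all libraries and limits mainly genes near 1 CPM, such as Foxp3, Flt3 and Osgin1.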

Other observations

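Srsf5 and Ebp had all 6 decoction libraries on 1 side of stress, unlike the medians of their lists. Srsf5, an SR-family splicing factor, stood at 331 to 337 CPM under stress and from 234 through 268 to 325 CPM with decoction, a log2 fold change of -0.28 (SE 0.11) with -0.30 at the low and -0.26 at the high dose; its list of 26 splicing genes had a median of 0.05. Ebp, an isomerase of cholesterol synthesis, stood at 25.5 to 27.5 CPM under stress and 28.9 to 40.0 CPM with decoction, a difference of 0.30 (SE 0.11) at each dose alike, while its list had a median of -0.14, or 0.16 without stress replicate 3. The genes that follow overlapped stress. Among apoptosis regulators, Bcl2, which protects cells, differed by -0.38 (SE 0.16), and Bak1, which permeabilises mitochondria, by 0.20 (SE 0.09), with a list median of 0.04. The lysosomal proteases Ctsd and Ctsl differed by 0.48 (SE 0.19) and 0.45 (SE 0.19), more at the low dose (0.77 and 0.68) than at the high dose (0.19 and 0.23), a difference between the doses with unadjusted edgeR p-values of 0.0197 and 0.0568. Timp1, the secreted inhibitor of matrix metalloproteinases, differed by 0.80 (SE 0.30), with 43.6 to 63.4 CPM under stress and 59.6 to 171 CPM with decoction. None of these genes passed over all genes.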
